A study of Mus musculus with 10 samples.

Results

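The transcripts described here come from 60 genes of mouse chromosome 14, listed by their location, and they were followed through mouse erythroleukemia (MEL) cells, red blood cell precursors transformed by a virus and grown in culture. The chromosome was selected on measured values, namely the array intensities of its genes, which had stood higher in FBB1.5, 1 of 4 subclones, than in the parental line. The difference between FBB1.5 and the parental line is therefore a description, and the limma calls counted for it carry no weight as evidence. The open point is which of the 60 genes follow it and which do not. The array carried an own probe set, annotated to 1 gene symbol, for 18194 genes, and 56 of the 60 genes had one. Each gene was read by its probe set with the highest mean over the 10 arrays. Of the 56, 55 exceeded the median intensity of the whole table, 30.52, on at least 2 arrays and were tested. The remaining gene, Ajuba, which encodes a LIM domain scaffold protein, lay below that median on all 10 arrays, with a mean of 9.47 in FBB1.5 and 13.6 in the parental line. Anxa11, Psme2, Esd and Uchl3 were read only by probe sets annotated to further genes as well, so no value is given for them.

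The 4 subclones, FBB1.5 and FBB1.7 as well as FBB1.10 and FBB1.11, carry BCL11A, a zinc finger repressor of fetal globin genes, fused to a FLAG and biotin tag. The parental line does not carry the tagged protein. All 5 lines, the parental one included, contain BirA, the bacterial enzyme that attaches biotin to the tag. Each subclone is 1 clone, so what the tagged protein does and what distinguishes a clone cannot be told apart within it. Total RNA of each line was hybridised to 2 Affymetrix arrays, 10 in all. The labels do not say whether a line was cultured separately for its arrays, so the p-values rest on the spread between these arrays alone, and that spread may be technical.

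The arrays were close to each other in overall brightness, with median intensities of 29.58 to 31.59. Across probe sets, Pearson's r was 0.981 to 0.9887 between arrays of 1 line and 0.9677 to 0.9868 between arrays of different lines. Of 11 erythroid marker genes, 9 had an own probe set and 7 were tested, among them Gata1 with a mean intensity of 2244, Klf1 with 1097, Epor with 1047 and Tfrc with 2594. Own probe sets of the late markers Slc4a1 and Hba-a1 lay below the filter. The summed intensity of the 9 erythroid markers was 7710 to 8239 in FBB1.5, 6769 to 6922 for FBB1.7, 7290 to 7692 for FBB1.10, 8125 to 8423 for FBB1.11 and 7227 to 7930 in the parental line. Of 7 macrophage and granulocyte, 4 lymphoid and 3 fibroblast markers, 4, 1 and 1 were tested, and the summed macrophage and granulocyte intensity was 481 to 530 in FBB1.5 and 483 to 562 in the parental line. The ratio of 3' to 5' actin control probe sets, a sign of RNA quality, was 1.467 on FBB1.5 array 1 and 1.139 on FBB1.5 array 2, against 1.217 and 1.801 on the parental arrays, and it was 1.06 to 1.172 on the other 6.

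A cell that gains a copy of a chromosome, or of a stretch of one, has an extra template for every gene on it, and the transcripts of most of those genes tend to increase together by a modest factor. Some genes depart from this because feedback or limiting factors set their transcript level. Transformed lines kept in culture often gain and lose chromosomes, so subclones of 1 line can differ in this way. The genes of a chromosome are otherwise a mixture of unrelated functions, and those listed here range over mitochondria, chromatin, protein turnover, cell division and RNA transport. DNA copy number was not analysed here.

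Promoters are shown for the 2 members with the largest and the 2 with the smallest difference between FBB1.5 and the parental line among those with an entry in the RefSeq promoter table (build GRCm38.p6), to set genes at the ends of the range side by side. The table held 45 of the 60 genes, Vdac2 not among them. Each stretch runs 5′ to 3′ on the gene's own strand, from 250 bases before the first listed start to 50 bases after it. Nt5dc2 lies at chr14:31130839-31131138 on the plus strand, Lats2 at chr14:57746074-57746373 on the minus strand, Ipo5 at chr14:120910944-120911243 on the plus strand and Bmpr1a at chr14:34502497-34502796 on the minus strand. Capitals mark GC boxes (GGGCGG, or CCGCCC on the other strand), CCAAT boxes (CCAAT or ATTGG) and TGACCA (or TGGTCA), a short motif reported for BCL11A. In the Ipo5 stretch, TGACCA overlaps a CCAAT box.
Nt5dc2: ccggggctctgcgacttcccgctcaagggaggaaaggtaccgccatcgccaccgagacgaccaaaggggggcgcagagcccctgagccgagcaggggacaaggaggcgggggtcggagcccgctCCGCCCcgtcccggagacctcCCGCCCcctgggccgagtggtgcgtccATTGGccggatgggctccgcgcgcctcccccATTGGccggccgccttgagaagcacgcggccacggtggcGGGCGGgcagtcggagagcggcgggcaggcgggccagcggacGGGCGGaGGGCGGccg
Lats2: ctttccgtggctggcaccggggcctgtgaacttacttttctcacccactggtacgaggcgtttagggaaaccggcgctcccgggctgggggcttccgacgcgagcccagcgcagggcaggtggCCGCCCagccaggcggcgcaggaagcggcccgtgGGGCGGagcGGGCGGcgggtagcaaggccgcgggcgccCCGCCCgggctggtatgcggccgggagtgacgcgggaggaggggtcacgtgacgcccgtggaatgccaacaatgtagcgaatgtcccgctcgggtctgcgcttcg
Ipo5: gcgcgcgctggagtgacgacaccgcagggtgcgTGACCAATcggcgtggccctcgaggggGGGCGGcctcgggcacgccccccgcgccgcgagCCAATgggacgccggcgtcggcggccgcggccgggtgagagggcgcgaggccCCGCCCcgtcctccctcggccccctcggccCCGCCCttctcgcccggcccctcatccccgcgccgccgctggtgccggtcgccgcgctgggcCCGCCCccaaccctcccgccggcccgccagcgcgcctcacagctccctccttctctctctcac
Bmpr1a: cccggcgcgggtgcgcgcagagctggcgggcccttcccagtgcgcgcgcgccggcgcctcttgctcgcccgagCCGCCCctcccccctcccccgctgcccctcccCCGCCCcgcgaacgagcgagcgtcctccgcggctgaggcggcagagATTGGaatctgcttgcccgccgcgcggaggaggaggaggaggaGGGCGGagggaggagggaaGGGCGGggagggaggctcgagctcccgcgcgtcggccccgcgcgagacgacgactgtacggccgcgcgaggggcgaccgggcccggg

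In these windows Nt5dc2 held 5 GC boxes and 2 CCAAT boxes, Lats2 held 4 GC boxes, Ipo5 held 4 GC boxes, 2 CCAAT boxes and 1 TGACCA, and Bmpr1a held 4 GC boxes and 1 CCAAT box. Genes at both ends of the range thus held GC boxes in like number. Of the 45 member promoters 82.2% held a GC box, against 61.2% of the promoters of all tested genes and 35.9% of all 27025 promoters. A CCAAT box was in 42.2% of member promoters and 38.4% of those of tested genes, and TGACCA in 11.1% and 11.3%. CCGGAAG, the core bound by ETS factors, was in 15.6% of member promoters and 17.4% of those of tested genes. TATAAA and the GATA motif AGATAA were in 2.22% of member promoters each, against 7.78% and 6.82% of those of tested genes, all searched on both strands. The median GC content was 62.3% in member promoters and 60.3% in those of tested genes.

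Most of the 55 tested members were moderately higher in FBB1.5, and a minority were level with the parental line. On the log2(intensity + 16) scale, which understates the fold of dim probe sets, 50 members lay above 0 and 5 below. The median difference, FBB1.5 minus parental, was 0.41, a fold of 1.33, with quartiles of 0.2 and 0.58. Over all 12502 tested genes the median was 0.013, and 52.8% lay above 0. Both FBB1.5 arrays exceeded both parental arrays for 42 of the 55 members, where 22.8% of all tested probe sets did so. For 41 members both FBB1.5 arrays exceeded the 8 arrays of all other lines, against 6.57% of probe sets. In limma's fit, 24 members were called at an adjusted p under 0.05, where 2.02% of probe sets were. Of these 23 were higher, where 1.29% of probe sets were, and 1 was lower, where 0.734% were. The count was 15 without the filter, where 0.446% of probe sets were called, and 3 without an intensity trend in the variance, where 0.0878% were. Fewer members and fewer probe sets were called with either FBB1.5 array left out. The median of the members was then 0.39 without array 1 and 0.452 without array 2. As the chromosome was chosen on this contrast, these counts describe it and are no test of it.

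The members form a graded series. A difference of 1 or more on the log2 scale was seen for 2 members, one of 0.5 to 1 for 20, one of 0.25 to 0.5 for 15 and one of 0.1 to 0.25 for 9. Another 8 lay between -0.1 and 0.1, and 1 lay below -0.1. In all, 37 of the 55 members stood at 0.25 or more, against 12.6% of all tested genes. Array by array, the median member stood at 0.452 and 0.39 above the parental mean in FBB1.5, at -0.0527 and 0.00288 in FBB1.7, at 0.0549 and -0.0358 in FBB1.10 and at -0.0395 and -0.0507 in FBB1.11. The 2 FBB1.5 arrays thus stood well apart from the 6 arrays of the other subclones, which straddled the parental level.

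**Figure D1:**
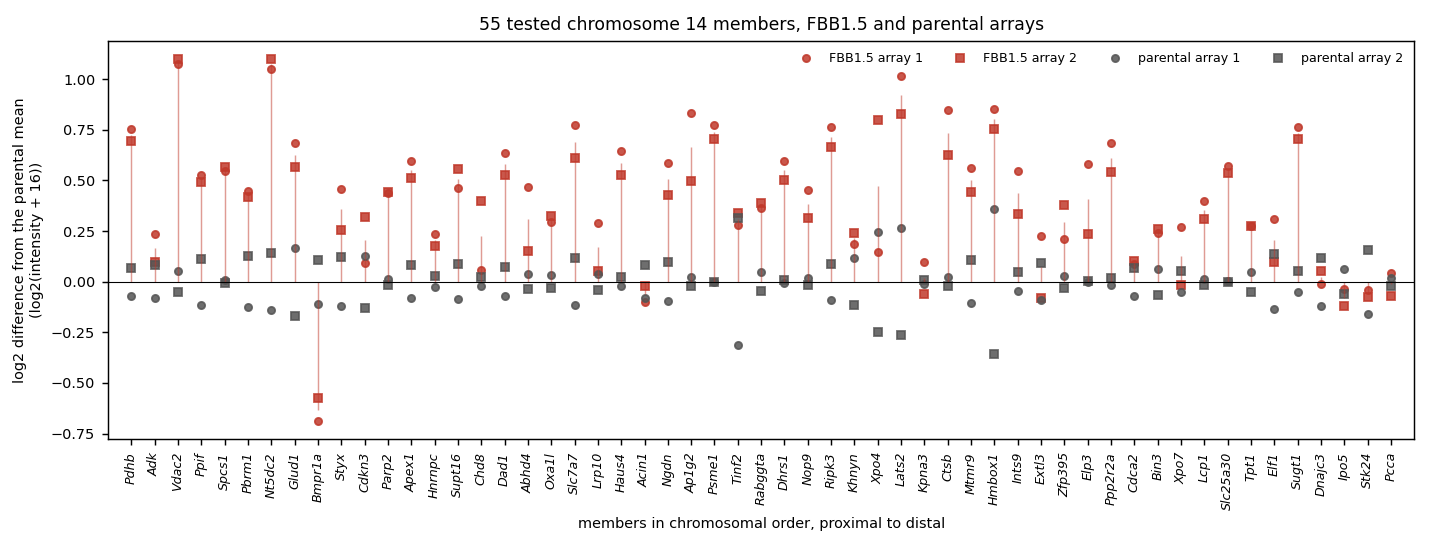
Log2 difference of each FBB1.5 array (red) and each parental array (grey) from the parental mean, for the 55 tested members in chromosomal order from proximal to distal; lines join 0 and the FBB1.5 mean. FBB1.5 lies above 0 for 50 members, while Bmpr1a lies at -0.64 and the last 4 genes lie between -0.08 and 0.03.

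Vdac2 encodes a channel of the mitochondrial outer membrane. Its intensity was 2983 and 3040 in FBB1.5, 1356 and 1441 for FBB1.7, 1514 and 1395 for FBB1.10, 1410 and 1351 for FBB1.11 and 1462 and 1359 in the parental line. The FBB1.5 arrays were about level with each other and far above the other 8, whose values overlapped. The difference from the parental line was 1.09 ± 0.072 (SE), the largest of the 55 on the log2(intensity + 16) scale. Its ratio of mean intensities was 2.14, where that of Nt5dc2 was 2.16, so it was not the largest on that measure.

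Nt5dc2, whose product has a 5'-nucleotidase domain, followed with intensities of 607 and 629 in FBB1.5, 318 and 334 for FBB1.7, 258 and 323 for FBB1.10, 361 and 377 for FBB1.11 and 257 and 316 in the parental line. Its difference was 1.08 ± 0.12. FBB1.5 was again clear of all other lines, and FBB1.11 came next. Lats2, a kinase of the Hippo growth control pathway, was dim, with 70.3 and 59.8 in FBB1.5, 24.6 and 27.4 for FBB1.7, 25.3 and 37.3 for FBB1.10, 22.2 and 41.4 for FBB1.11 and 35.2 and 19.5 in the parental line. Since 1 of the 2 parental arrays lay at or below the table median, its FBB1.5 level is given as at least 1.98-fold higher. It was the only tested member with an array at or below that median.

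Hmbox1, a homeobox protein that binds telomeric DNA, measured 271 and 252 in FBB1.5, 177 and 158 for FBB1.7, 154 and 152 for FBB1.10, 163 and 148 for FBB1.11 and 188 and 108 in the parental line. The parental arrays were wide apart, and the difference of 0.80 had an SE of 0.17. Its further probe sets, both dimmer, stood at 0.27 and -0.29, and the mean over its probe sets was 0.26. Psme1, the alpha subunit of the PA28 proteasome activator, measured 856 and 814 in FBB1.5, 454 and 436 for FBB1.7, 398 and 459 for FBB1.10, 467 and 546 for FBB1.11 and 494 on both parental arrays. Ctsb, the lysosomal protease cathepsin B, measured 3601 and 3087 in FBB1.5, 1812 and 1698 for FBB1.7, 2164 and 1893 for FBB1.10, 1847 and 1698 for FBB1.11 and 2027 and 1968 in the parental line. For both genes the FBB1.5 arrays exceeded the 8 others, with differences of 0.74 ± 0.10 and 0.73 ± 0.085 (SE). The 4 further probe sets of Ctsb stood at 0.12, 0.48, 0.65 and 0.88.

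Sugt1, a co-chaperone of HSP90, measured 1235 and 1183 in FBB1.5, 769 and 761 for FBB1.7, 870 and 710 for FBB1.10, 701 and 731 for FBB1.11 and 695 and 747 in the parental line. Pdhb, the beta subunit of the E1 component of pyruvate dehydrogenase, measured 1583 and 1523 in FBB1.5, 1078 and 1085 for FBB1.7, 1015 and 972 for FBB1.10, 1004 and 1006 for FBB1.11 and 889 and 980 in the parental line. Their differences were 0.73 ± 0.096 and 0.72 ± 0.077 (SE), and a further probe set of Sugt1 stood at 0.31. For Sugt1 both arrays of FBB1.7, and for Pdhb both arrays of FBB1.7 and of FBB1.11, also lay above both parental arrays, though far below FBB1.5. Pdhb is the most proximal tested member and Sugt1 the last tested one before Dnajc3, and their differences were nearly the same.

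**Figure D2:**
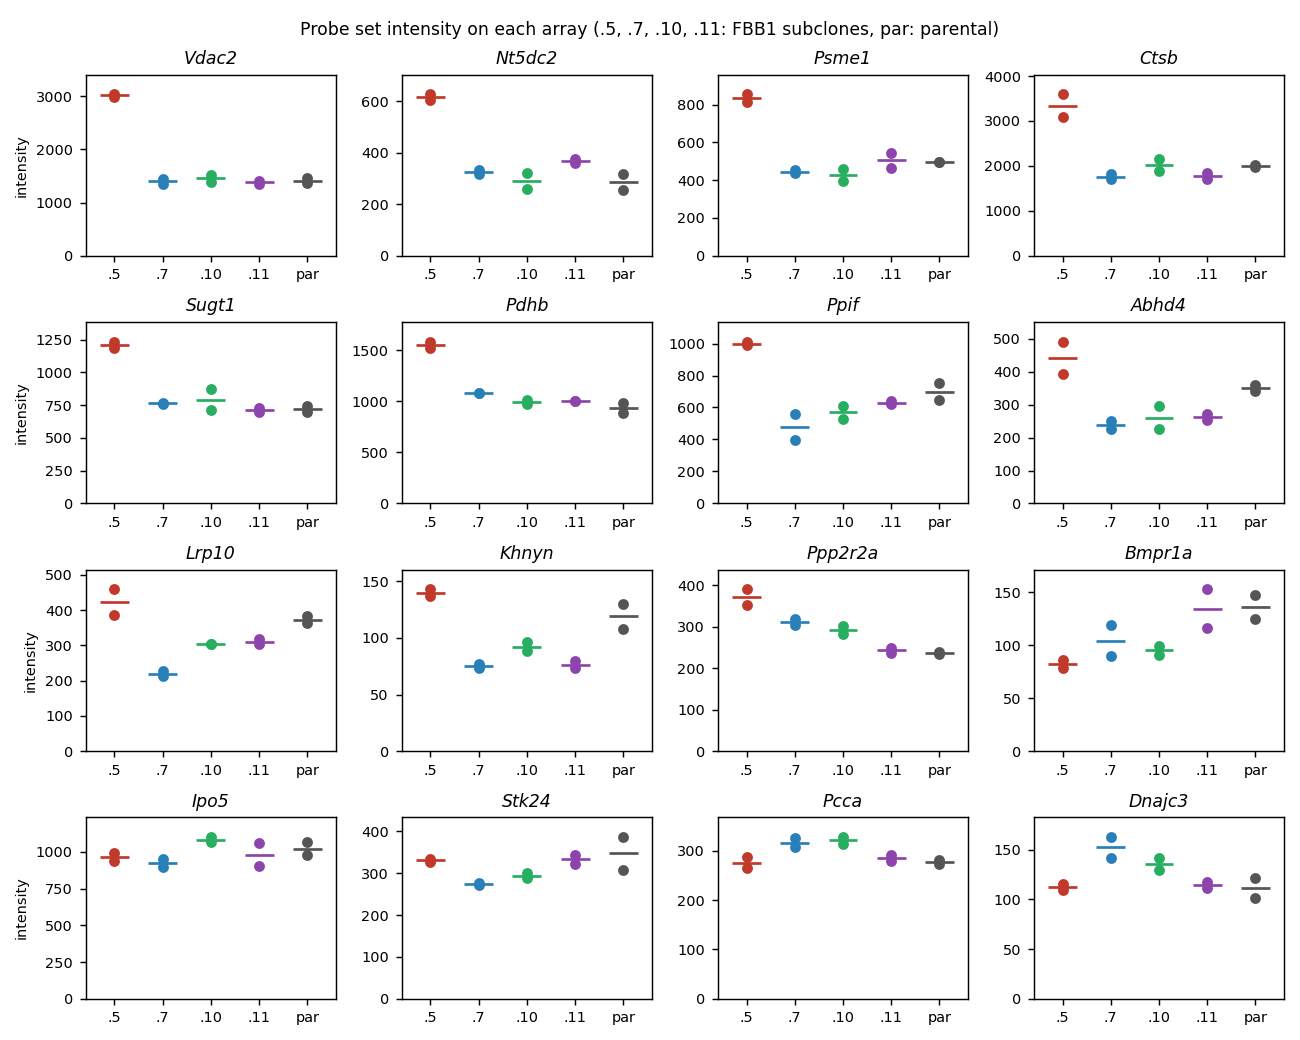
Probe set intensity (linear scale from 0) on each array for 16 members, with the FBB1 subclones, marked by the last part of their names, left of the parental line (par); points are arrays and bars the mean of the 2. In the first 6 panels, Vdac2 to Pdhb, both FBB1.5 arrays stand above the 8 others, while in the panels of Bmpr1a, Ipo5, Stk24, Pcca and Dnajc3 they do not.

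Mitochondrial and metabolic genes gave a median difference of 0.55 over 11 tested members and 10 of them lay above 0. Besides Vdac2, Nt5dc2 and Pdhb they include Glud1 (glutamate dehydrogenase) at 0.62, the mitochondrial carrier Slc25a30 and the dehydrogenase Dhrs1 at 0.55 each, Ppif (cyclophilin D of the permeability pore) at 0.51, the inner membrane insertase Oxa1l and the lipase Abhd4 at 0.31 each and adenosine kinase (Adk) at 0.16. Pcca, the alpha subunit of propionyl-CoA carboxylase, was the exception at -0.01. Further, dimmer probe sets of Oxa1l stood at 0.04 and -0.38, and the mean over the probe sets of Oxa1l was -0.01. Adk was also the one gene with both FBB1.5 arrays above both parental arrays but not above all 8 others, since FBB1.10 array 1 reached 714 against 777 and 704 in FBB1.5.

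Genes of DNA repair, chromatin and transcription had a median of 0.43 over 11 tested members. On their brightest probe sets all 11 lay above 0, between 0.21 and 0.80. Apex1, the main endonuclease for abasic sites, stood at 0.55, Supt16, a subunit of the histone chaperone FACT, at 0.51, Ints9 of the Integrator complex and the poly(ADP-ribose) polymerase Parp2 at 0.44 each, Pbrm1 of the PBAF remodeller at 0.43 and Elp3, the catalytic subunit of Elongator, at 0.41. Zfp395, a zinc finger protein, stood at 0.29, the remodeller Chd8 at 0.23 and the ETS factor Elf1 at 0.21. A further, dimmer probe set of Elf1 stood at -0.25, and the mean over its probe sets was -0.02. Tinf2, a shelterin protein at telomeres, varied most between arrays. It measured 227 and 237 in FBB1.5, 315 and 273 for FBB1.7, 295 and 141 for FBB1.10, 63.8 and 190 for FBB1.11 and 145 and 233 in the parental line, so its difference of 0.31 ± 0.35 (SE) was within its spread.

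Protein folding, turnover and secretory genes had a median of 0.57 over 10 tested members, all above 0. Ap1g2, a gamma subunit of the AP-1 clathrin adaptor, stood at 0.67, Dad1 of oligosaccharyltransferase at 0.58 and Spcs1 of the signal peptidase at 0.56. Rabggta, which prenylates Rab proteins, stood at 0.38 and the receptor Lrp10 at 0.17. The heparan sulfate glycosyltransferase Extl3, at 0.07, and the endoplasmic reticulum co-chaperone Dnajc3, at 0.03, were near the parental level.

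Cell division, signalling and structural genes had a median of 0.36 over 14 tested members, with 12 above 0. The necroptosis kinase Ripk3 stood at 0.71, Slc7a7, a subunit of a cationic amino acid transporter, at 0.69, Ppp2r2a, a regulatory subunit of protein phosphatase 2A, at 0.61, the augmin subunit Haus4 at 0.59 and the myotubularin-like Mtmr9 at 0.50. L-plastin (Lcp1) and the pseudophosphatase Styx stood at 0.36, Tpt1 at 0.27, Bin3 at 0.25, the phosphatase Cdkn3 at 0.20 and Cdca2, a chromosomal partner of protein phosphatase 1, at 0.09. Tpt1, the abundant translationally controlled tumour protein, measured 12171 and 12163 in FBB1.5, 10009 and 10240 for FBB1.7, 10334 and 9889 for FBB1.10, 9934 and 9977 for FBB1.11 and 10413 and 9732 in the parental line. Its small difference thus still separated the FBB1.5 arrays from the 8 others.

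RNA and nuclear transport genes had the lowest median of the 5 groups, 0.20 over 9 tested members. Of these 7 lay above 0, and 4 had both FBB1.5 arrays above both parental arrays. Ngdn and Nop9, which act in ribosome assembly, stood at 0.51 and 0.38, the RNA-binding protein Khnyn at 0.22, Hnrnpc at 0.20 and the exportin Xpo7 at 0.13. The exportin Xpo4 stood at 0.47, but on 148 and 242 in FBB1.5 against 160 and 109 in the parental line, so its arrays overlapped. Kpna3, Acin1 and Ipo5 lay between -0.08 and 0.02. No test was run between the role groups.

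Bmpr1a, a type I receptor for bone morphogenetic proteins, was the 1 member clearly below the parental line. It measured 78.3 and 86.1 in FBB1.5, 89.5 and 119 for FBB1.7, 99.7 and 90.6 for FBB1.10, 116 and 153 for FBB1.11 and 125 and 148 in the parental line. FBB1.5 was the lowest line, at -0.64 ± 0.15 (SE), and FBB1.7 and FBB1.10 also lay below both parental arrays. Its 3 further tested probe sets, at -0.01, 0.14 and -0.04, did not show the difference. The members on either side of it in the list, Glud1 and Styx, stood at 0.62 and 0.36. Genes outside the list lie nearer to it, and those with a mean intensity above 100 were not clearly raised either. Next to it were Mmrn2 at 0.07 on the proximal side and Wapl at -0.12, 4930474N05Rik at -0.08 and Ccser2 at -0.13 on the distal side.

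Of the other members near 0, 4 form the distal end of the list. Ipo5, an importin, measured 995 and 937 in FBB1.5, 951 and 900 for FBB1.7, 1102 and 1064 for FBB1.10, 1059 and 901 for FBB1.11 and 1068 and 977 in the parental line. Stk24, a Ste20-type kinase, measured 335 and 327 in FBB1.5, 273 and 276 for FBB1.7, 300 and 289 for FBB1.10, 323 and 344 for FBB1.11 and 308 and 387 in the parental line. In both genes FBB1.5 lay within or at the edge of the parental pair. Pcca measured 287 and 264 in FBB1.5, 325 and 307 for FBB1.7, 328 and 314 for FBB1.10, 280 and 292 for FBB1.11 and 282 and 274 in the parental line. Dnajc3 measured 110 and 116 in FBB1.5, 142 and 163 for FBB1.7, 142 and 130 for FBB1.10, 112 and 118 for FBB1.11 and 101 and 122 in the parental line. For Pcca and Dnajc3 it was FBB1.7 and FBB1.10, not FBB1.5, that stood above both parental arrays on these probe sets. Further, dimmer probe sets of Dnajc3 stood at 0.01 and -0.33 in FBB1.5 and went the other way in FBB1.7, at -0.33 and -0.30. The further probe set of Pcca stood at -0.11 in FBB1.5 and -0.07 in FBB1.7.

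The remaining 4, Acin1, Kpna3, Extl3 and Cdca2, lie further proximally. Acin1, a nuclear protein of the exon junction complex, measured 295 and 313 in FBB1.5, 426 and 336 for FBB1.7, 331 and 299 for FBB1.10, 291 and 298 for FBB1.11 and 300 and 337 in the parental line. Kpna3, an importin alpha, measured 292 and 260 in FBB1.5, 287 and 273 for FBB1.7, 361 and 290 for FBB1.10, 265 and 252 for FBB1.11 and 270 and 274 in the parental line. In neither did FBB1.5 stand apart on this probe set. Their further probe sets lay higher, at 0.16 for Acin1 and at 0.37 and 0.32 for Kpna3. Extl3 measured 562 and 452 in FBB1.5, 388 and 323 for FBB1.7, 413 and 354 for FBB1.10, 377 and 406 for FBB1.11 and 449 and 511 in the parental line. FBB1.5 overlapped the parental line here, and the other 3 subclones lay below it. Cdca2, at 0.09, measured 249 and 252 in FBB1.5 and 222 and 246 in the parental line, so it was the 1 gene of these 8 with both FBB1.5 arrays above both parental arrays. Its further probe set stood at 0.42.

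Most tested members proximal of Dnajc3 stood higher in FBB1.5, while those from Dnajc3 on were near the parental level. The 51 tested members from Pdhb to Sugt1 had a median of 0.44 and a range of -0.64 to 1.09. Of these 49 lay above 0, and 42 had both FBB1.5 arrays above both parental arrays. The 4 from Dnajc3 to Pcca had a median of -0.034 and a range of -0.08 to 0.03, and in 0 of them did both FBB1.5 arrays exceed both parental arrays. The division at Dnajc3 was made after these values were seen, so no test is attached to it.

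Genes of the chromosome, most of them outside the list but with the members counted in, showed the same layout. Dnajc3, Ipo5, Stk24 and Pcca are thus among the distal genes counted here. The chromosome was chosen on FBB1.5 values and the division made after they were seen, so this layout is a description and no test. Counting chromosome 14 genes whose mean intensity exceeded 100, the 229 proximal of Dnajc3 had a median of 0.36 and 207 lay above 0, while the 10 from Dnajc3 to the distal end had a median of -0.034, with 4 above 0 and a range of -0.16 to 0.11. Taken 20 at a time, the first 11 blocks from the proximal end had medians of 0.28 to 0.45, and the last, the 19 genes from Mzt1 to Tmtc4, had 0.03. The last genes before Dnajc3 were mixed, with Bora at 0.59, Dis3 at 0.81, Klf5 at 0.08, Klf12 at 0.14, Mycbp2 at -0.21, 4930432J09Rik at 0.04, Rbm26 at 0.43 and Ndfip2 at 0.39. Beyond it, Rap2a at -0.12, Dock9 at 0.11, Ubac2 at -0.16 and Tm9sf2 at 0.01 lay close to 0. Chromosome 14, chosen on its FBB1.5 values, had a median of 0.343 in FBB1.5, against -0.068 to 0.047 for the 19 other chromosomes. Its medians were -0.035 for FBB1.7, 0.009 for FBB1.10 and -0.030 for FBB1.11.

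**Figure D3:**
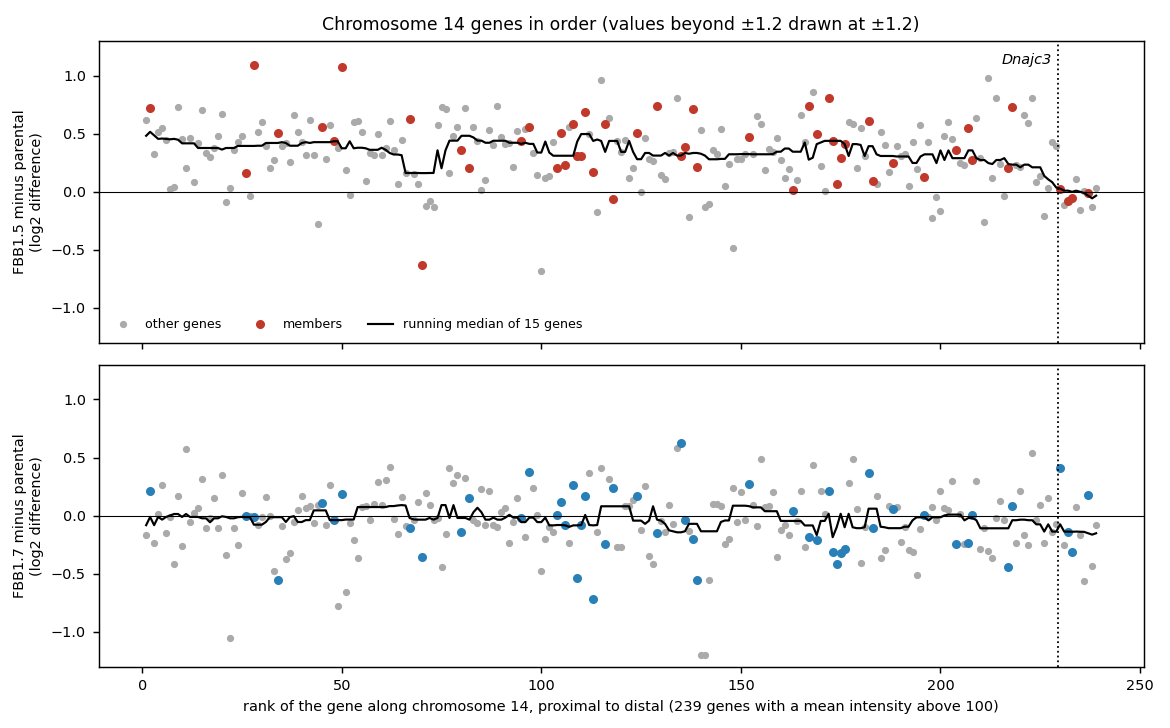
Log2 difference from the parental line for genes of chromosome 14 averaging over 100, in order from proximal to distal, in FBB1.5 (above) and FBB1.7 (below); coloured points are members, grey points other genes, the black line the running median of 15 genes and the dotted line Dnajc3. In FBB1.5 the median lies at 0.36 proximal of Dnajc3 and at -0.034 from it onward, while in FBB1.7 the chromosome has a median of -0.035.

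Among 98 other chromosome 14 genes with a mean above 200, the largest differences were those of Prmt5, an arginine methyltransferase, at 0.96, Dis3, an exosome nuclease, at 0.81, the ubiquitin-like Nedd8 at 0.80, Mapk1ip1l at 0.74 and the ubiquitin-conjugating enzyme Ube2e1 at 0.73. Prmt5 averaged 1141 ± 75.8 in FBB1.5 and 577 ± 10.7 in the parental line (SD, n = 2 each), and the other 3 subclones were higher than parental by 0.41 to 0.44 as well. The smallest were Nufip1 at -0.26, Mycbp2 at -0.21, Ubac2 at -0.16, Ccser2 at -0.13 and the mast cell protease Mcpt2 at -0.13. The Vdac2 difference was larger than that of every gene named here.

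Probe sets not used to rank the members give a further reading. There were 58 further tested probe sets for 36 members, and they share the RNA and arrays with the first. Of these 45 lay above 0 in FBB1.5 with a median of 0.36, where 54.1% of all tested probe sets lay above 0. For 36 both FBB1.5 arrays exceeded both parental arrays, where 22.8% of all tested probe sets did so. Among the 33 with a mean above 100, 31 lay above 0, with a median of 0.41. In 10 cases the sign was opposite to that of the gene's brightest probe set. The chromosome was chosen on this contrast, so these counts are a description and no test. Ordered by mean intensity, the dimmest 18 members had a median of 0.34, the middle 18 of 0.33 and the brightest 19 of 0.55.

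Partners of the members' proteins that are encoded on other chromosomes were near the parental level in FBB1.5. Of 60 listed partners 58 were tested, and 1 was left out because it lies on chromosome 14. The 58 had a median of 0.021 and a range of -0.40 to 0.38, and 34 lay above 0, where 52.8% of all tested genes did. Of the 58, 1, Parp1, was called higher, where 1.29% of probe sets were. The channel genes Vdac1 and Vdac3 stood at 0.05 and 0.09, with Vdac1 at 2199 ± 49 in FBB1.5 and 2135 ± 223 in the parental line (SD, n = 2 each). Pdha1, which pairs with Pdhb, stood at 0.06, and Spcs2, in the signal peptidase with Spcs1, at 0.08. Psme3, a relative of Psme1, stood at 0.20. Pccb, which pairs with Pcca, measured 161 ± 20.1 in FBB1.5 and 120 ± 0.106 in the parental line, a difference of 0.37. Rabggtb, which pairs with Rabggta, measured 541 ± 50.4 in FBB1.5 and 719 ± 15.5 in the parental line, a difference of -0.40. Rabggta itself stood at 0.38, so its pair lay on opposite sides of 0, while neither Pccb nor Rabggtb was called.

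The other 3 subclones, whose values did not enter the choice of the genes but which share the parental arrays with FBB1.5, showed no general shift of the list. In FBB1.7, 24 of the 55 members lay above 0 and 31 below, with a median of -0.022 against -0.015 for all tested genes. In FBB1.10 the counts were 30 and 25, with a median of 0.018 against 0.0044. In FBB1.11 they were 20 and 35, with a median of -0.047 against 0.0026. The medians of FBB1.7 and FBB1.10 changed sign when single arrays were left out.

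**Figure D4:**
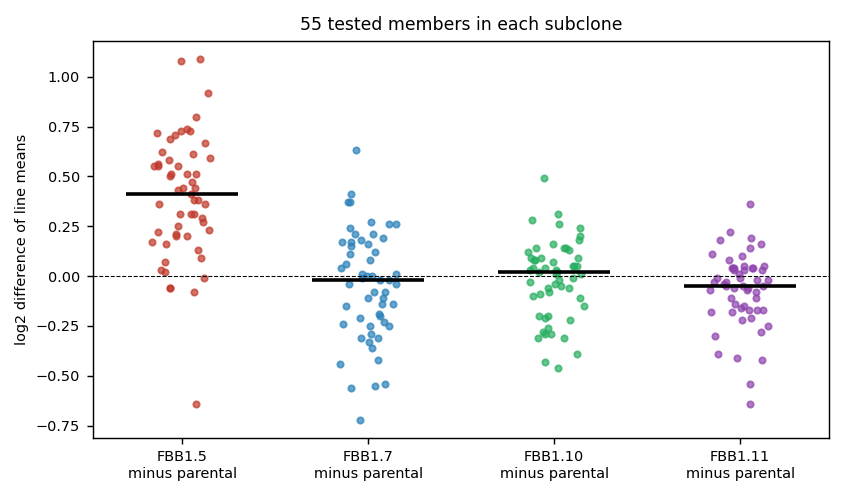
Log2 difference from the parental line of the 55 tested members in each subclone; points are members and black bars medians. The median was 0.41 in FBB1.5, against -0.022 in FBB1.7, 0.018 in FBB1.10 and -0.047 for FBB1.11.

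In FBB1.7 limma called 5 members at an adjusted p under 0.05, 4 lower and 1 higher. Over all tested probe sets 10.1% passed, 5.5% lower and 4.55% higher, so the members' share of 5 in 55 was near the background. Without FBB1.7 array 1 the share over all probe sets was 3.43% with 1 member called, and without array 2 it was 4.27% with 2. At an unadjusted p under 0.05 there were 19 members, where 24.2% of probe sets were. In FBB1.10 limma called 0 members, where 1.8% of probe sets were called, and 11 had an unadjusted p under 0.05, where 15.4% of probe sets did. In FBB1.11 limma called 0, where 0.188% were called (0.0758% higher), and 8 had an unadjusted p under 0.05, where 11.8% did.

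The 4 members that fell in FBB1.7 were higher in FBB1.5 than in the parental line, as were 50 of the 55 tested members. They were not called in FBB1.5. Lrp10, a receptor of the LDL receptor family, measured 459 and 387 in FBB1.5, 214 and 226 for FBB1.7, 303 and 305 for FBB1.10, 304 and 317 for FBB1.11 and 383 and 362 in the parental line. FBB1.7 was the lowest line, FBB1.10 and FBB1.11 were level with each other, and FBB1.5 was the highest. In FBB1.7 Lrp10 fell by 0.72 ± 0.11 on the log2 scale (limma, adjusted p = 0.00074). It was also the 1 member that passed the F test among FBB1.7, FBB1.10 and FBB1.11 (limma, adjusted p = 0.042), where 2.18% of probe sets passed, and 14 members had an unadjusted p under 0.05, where 14.6% of probe sets did. The fall in FBB1.7 passed with each array left out in turn, and the F test was lost without any 1 array of FBB1.7, FBB1.10 or FBB1.11 (adjusted p = 0.0707 to 0.357).

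Ppif measured 1012 and 988 in FBB1.5, 395 and 560 for FBB1.7, 607 and 531 for FBB1.10, 623 and 639 for FBB1.11 and 644 and 756 in the parental line. FBB1.5 was the highest line and FBB1.7 the lowest, with arrays far apart. In FBB1.7 Ppif fell by 0.55 ± 0.13 (limma, adjusted p = 0.016), and its second probe set fell by 0.43 (limma, adjusted p = 0.014). The call was lost without FBB1.7 array 1 (adjusted p = 0.221) or parental array 2 (adjusted p = 0.105).

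Abhd4 measured 492 and 393 in FBB1.5, 225 and 250 for FBB1.7, 295 and 225 for FBB1.10, 253 and 271 for FBB1.11 and 361 and 343 in the parental line. The 3 other subclones lay below both parental arrays and FBB1.5 above them. Abhd4 fell by 0.54 ± 0.14 in FBB1.7 (limma, adjusted p = 0.021), and its differences of -0.43 in FBB1.10 and -0.41 in FBB1.11 did not pass. Its second probe set stood at -0.21 in FBB1.7 and did not pass (limma, adjusted p = 0.31). The call was lost without FBB1.7 array 1 (adjusted p = 0.169), FBB1.7 array 2 (0.0624) or parental array 1 (0.0654).

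Khnyn measured 137 and 143 in FBB1.5, 77.1 and 73.8 for FBB1.7, 96.2 and 88.5 for FBB1.10, 73 and 79.9 for FBB1.11 and 130 and 108 in the parental line. It had the same order of sides as Abhd4, and fell by 0.56 ± 0.13 in FBB1.7 (limma, adjusted p = 0.012). Its 2 further probe sets, at 0.06 and 0.25 in FBB1.7, did not show this, and the mean over its probe sets was -0.08. The call was lost without FBB1.7 array 1 (adjusted p = 0.0669), FBB1.7 array 2 (0.0828) or parental array 1 (0.0767).

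Ppp2r2a was the 1 member that rose in FBB1.7. It measured 390 and 352 in FBB1.5, 303 and 318 for FBB1.7, 301 and 282 for FBB1.10, 249 and 236 for FBB1.11 and 234 and 240 in the parental line. FBB1.5, FBB1.7 and FBB1.10 each lay above both parental arrays, and FBB1.11 overlapped them. The difference in FBB1.7 was 0.37 ± 0.10 (limma, adjusted p = 0.036), and it was lost without either array of FBB1.7 (adjusted p = 0.128 and 0.191), of FBB1.11 (0.0561 and 0.0562) or of the parental line (0.0937 and 0.0908). Its mean over all probe sets was 0.17 higher (adjusted p = 0.32), and with median centring its adjusted p was 0.0732.

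Of the 5 calls in FBB1.7, those of Lrp10 and Khnyn also passed with the actin ratio as a covariate and without an intensity trend in the variance. With the actin ratio, Ppif had an adjusted p of 0.211, Abhd4 of 0.161 and Ppp2r2a of 0.106, and without the trend these were 0.0825, 0.0767 and 0.0768. Abhd4 also missed without the filter on dim probe sets, at 0.0503. The F test of Lrp10 missed without the trend (adjusted p = 0.19), without the filter (0.0784) and with median centring (0.0643).

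Mast cell markers were lower in sum in FBB1.7 than in the parental line, as they were in FBB1.10 and FBB1.11. The summed intensity of 11 mast cell and basophil genes, 8 of them tested, was 5376 to 6807 in FBB1.5, 1179 to 1280 for FBB1.7, 2409 to 2977 for FBB1.10, 2025 to 2050 for FBB1.11 and 5965 to 7116 in the parental line. Most of it is Mcpt2, a chromosome 14 gene like Cma1 and Gzmb, at 4988 in FBB1.5, 673 in FBB1.7 and 5453 in the parental line. The tested markers were lower in FBB1.7 than in the parental line except Tpsb2, with means of 54.2 in FBB1.7 and 38.7 in the parental line. Fcer1a, Ms4a2 and Hdc, which help define mast cells, lay below the filter. The part of these genes in the differences of FBB1.7 was not tested. Of the 58 partners encoded elsewhere 7 were called in FBB1.7, where 10.1% of all probe sets were, a share near the background, with Pdha1 lower by 0.29 (limma, adjusted p = 0.013) and Pdhx, Dld, Rpn1, Ddost, Parp1 and Ints12 higher. In FBB1.10 Rpn1 and Ddost, which are subunits of oligosaccharyltransferase like Dad1, were called higher, 2 of 58 where 1.8% of probe sets were called. In FBB1.11 limma called 0 of the 58, where 0.188% of probe sets were called.

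Vdac2 was also used to find transcripts with a like pattern over the 10 arrays, on the log2 scale and among all tested genes. The highest Pearson correlations were those of Ppp1cb on chromosome 5 at 0.990, Parp2 on chromosome 14 at 0.989, Tpt1 at 0.985, Cnih1 at 0.980 and Cwh43 on chromosome 5 at 0.980. Of these 5, 3 lie on chromosome 14 and 2, Parp2 and Tpt1, are in the list. The correlations describe 10 arrays that share 1 contrast, FBB1.5 against the rest. Ppp1cb, a catalytic subunit of protein phosphatase 1, averaged 1619 ± 38.7 in FBB1.5 and 1204 ± 23.6 in the parental line (SD, n = 2 each), and Cwh43 averaged 138 ± 12.4 in FBB1.5 and 21.9 ± 4.07 in the parental line.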

How the data were processed

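Total RNA was measured on 10 arrays, 2 per line, and lines come from the sample titles. The deposited table holds intensities on a linear scale; the steps by which the authors summarised and scaled probes are not given in the sources used. Of 45101 probe sets, 64 controls were left out and 25061 passed the filter. Values were taken as log2(intensity + 16). In R 4.3.3, limma 3.58.1 fitted 5 line means with an intensity trend, and p-values were adjusted by Benjamini-Hochberg over all tested probe sets at 0.05. The fit was tested on simulated data. A line left with 1 array was taken to vary as the other lines do. Probe sets were named from the platform annotation, and the order of genes and the promoters come from RefSeq (GRCm38.p6). A fold written as at least N sets log2 intensities without the 16 against parental arrays raised to the table median. Standard errors are limma's. The members and all lists were chosen with earlier results of these data known. Values on every array are given for Vdac2, the 8 largest and 8 smallest differences in FBB1.5 and members passing elsewhere; those of Tinf2 and Tpt1 and single values of Adk, Xpo4 and Cdca2 were added after their values were seen. Alternatives covered the pseudocount, normalization, filter, variance model, probe set rule, RNA quality, replicate number and each array left out. The main fit did not pair arrays by replicate number. Correlations of deviations from line means between same-numbered arrays were -0.157 to 0.183, which does not settle whether these arrays share a batch. Figures were drawn with matplotlib 3.10.9.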

Additional observations from a re-analysis of the deposited data

Results flagged for a closer look

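Lrp10 differed among FBB1.7, FBB1.10 and FBB1.11 by limma's F test (adjusted p = 0.042). In 22 members at least 1 subclone lay with both arrays above both parental arrays and another with both below. For 9 of these, FBB1.5 lay above and the other 3 subclones all below. The share of all tested probe sets with such orders was not counted, so these counts are not read as a result about the members. Both FBB1.5 arrays lay above both parental arrays for 22.8% of all tested probe sets, and the chromosome was chosen for high FBB1.5 values. Of the 9, 4 passed in FBB1.7, with differences from the parental line of -0.72 for Lrp10, -0.56 for Khnyn, -0.55 for Ppif and -0.54 for Abhd4. The other 5 did not pass there, with -0.31 for Ints9, -0.29 for Elp3, -0.25 for Ap1g2, -0.24 for Haus4 and -0.20 for Ripk3. The difference between FBB1.5 and the other subclones was not tested for these genes, since the list was made from FBB1.5.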

How the results depend on the processing

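The median difference of the members in FBB1.5 stayed above 0 under every alternative run, from 0.351 (64 added before the log) to 0.452 (actin ratio as a covariate), and from 0.39 to 0.452 with single arrays left out. In FBB1.10 the median ran from -0.0358 to 0.0549 with arrays left out, in FBB1.7 from -0.0527 to 0.00288 and in FBB1.11 from -0.08 to -0.0395. The 24 members called in FBB1.5 became 15 without a filter, 3 without an intensity trend and 12 to 22 with arrays left out, the fewest without FBB1.5 array 1. The 5 called in FBB1.7 became 9 with a filter on all 10 arrays, 8 with robust eBayes, 2 without a trend, 2 with the actin covariate and 1 to 6 with arrays left out, the fewest without FBB1.7 array 1 (1) or array 2 (2). The share of all tested probe sets called in FBB1.7 was 10.1% in the main fit. It was 14% with the filter on all 10 arrays, 10.3% with robust eBayes, 4.74% without a trend and 3.89% with the actin covariate. Each of these member counts changed in the same direction as the share, so they are not read as changes particular to the members. In FBB1.10 the count of 0 members became 1 with the mean over a gene's probe sets, where 1.57% of genes were called. The F test's 1 became 0 with median centring, where 1.97% of probe sets passed, 0 without a filter (0.426%) and 0 without a trend (0.00798%). It became 2 with gene means, where 2.46% of genes passed, and the 1 was lost with some single arrays left out. Over the whole table, the 507 calls of FBB1.5 became 201 without a filter, 22 without a trend, and 184 to 810 with arrays left out, and the 2519 of FBB1.7 (10.1%) became 1628 without a filter, 1187 without a trend, 975 with the actin covariate and 859 to 2637 with arrays left out. Without FBB1.7 array 1 they were 859 (3.43%) and without array 2 they were 1071 (4.27%), where 1 and 2 of the members were called. In FBB1.5, 323 of 507 were higher, against 297 of 553 after quantile normalization and 236 of 425 after median centring. The causes were not tested. With the replicate number as a block, 24 members were called in FBB1.5, where 2.23% of probe sets were, and 7 for FBB1.7, where 9.95% were. There were 0 for FBB1.10 and 0 for FBB1.11, where 2.13% and 0.483% of probe sets were called. Limma's F test passed 1 member (Lrp10 adjusted p = 0.0458), where 2.34% of probe sets passed. Whether arrays with the same replicate number share a batch was not settled. With 2 arrays per line, differences near their SE cannot be resolved, and dim probe sets are compressed by the added 16.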
